A study of Mus musculus with 30 samples.

Results

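Cell cycle and mitosis genes were followed in RNA from subcutaneous tumors of B16F10, a transplantable mouse melanoma line. The set held 41 genes, picked by symbol from the 18975 genes of the deposited expression table, and all 41 were found. By textbook role, 17 act in the commitment to and passage through S phase and 24 act in G2 and mitosis. Total RNA from 30 tumors was sequenced. Hosts were female C57BL/6 mice that were either wild type (WT, genotype ARE-del +/+) or carried 1 ARE-del copy (HET, genotype ARE-del +/-). The ARE-del allele lacks the AU-rich element of the interferon-gamma gene, a sequence that shortens the life of its message, and so raises interferon-gamma. Dosing began after 7 days of tumor growth, 2 times a week, with rat IgG2A as the control, with 0.25 mg of an antibody to PD1, with 0.25 mg of an agonist antibody to CD40, or with both antibodies together. The WT groups held 5 IgG, 4 anti-PD1, 3 anti-CD40 and 3 combination tumors, and the HET groups held 4, 3, 4 and 4. All groups carried the same B16F10 cells, so the ARE-del allele sat in the cells of the host and not in the tumor cells. The labels number the tumors within each group but do not say that they came from separate mice, so the tests weigh differences against sample-to-sample spread that may be technical.

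A cell enters S phase when cyclin E and its kinase release E2F factors, which switch on the genes for replication licensing, the replication fork and nucleotide supply. Mitotic genes come on later, under FOXM1 and the DREAM and MuvB complexes, which act through promoter elements such as the cell cycle homology region (CHR) and the NF-Y box. Their products condense the chromosomes, build the spindle, hold the checkpoint and then trigger anaphase. Summed over a tumor, these messages track how many cells are cycling, and they are the usual core of proliferation signatures. In bulk tumor RNA, fewer cycling cells and less message per cycling cell cannot be told apart.

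Values are log2 CPM as deposited, CPM being reads scaled to a common library size, and differences are on the same log2 scale with the standard error (SE) of the fit. The libraries held 17.6 to 36.0 M counted reads (median 24.9 M), so every member was well above the reading limit, and all 41 were among the 15002 genes that passed the filter on low values. The 16 melanocyte markers checked had reads in every library, with summed levels of 27160 to 77588 CPM. The headers also give each library an L number from L5 to L8 whose meaning is not stated in the sources used here. All WT IgG libraries were L5, all WT anti-CD40 and WT combination libraries were L6, and all HET combination libraries were L8, so in WT hosts anti-CD40 and the combination cannot be told apart from the L number. Under no treatment did an L number hold both WT and HET libraries, so HET against WT cannot be told apart from it either. HET IgG replicate 2 stood apart, with a scaling factor of 0.767 against 0.941 to 1.05 elsewhere and 6.53% mitochondrial reads against 0.722% to 4.46% elsewhere. Set medians and named members whose differences it moved by over 1.5 times or turned are also given without it.

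The 41 genes were expressed at widely different levels. Per kilobase of exon, Pcna, the sliding clamp of the replication fork, averaged 114 CPM over the 30 libraries, and Rrm2, the regulated subunit of ribonucleotide reductase, averaged 113. Ccnb2, a mitotic cyclin, averaged 62.8 CPM per kilobase, and the replicative helicase subunits Mcm2, Mcm6 and Mcm3 averaged 57.8, 55.2 and 52.8. At the low end stood Ccne2, the second cyclin E, with 3.92 CPM per kilobase, the phosphatase Cdc25c with 4.16, the helicase cofactor Gins2 with 5.18 and the licensing factor Cdc6 with 6.57. The proliferation antigen Mki67 averaged 42.9 CPM per kilobase. S phase and mitotic genes were thus found at both ends of the range.

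Spread between libraries was modest. The SD of a member over the 30 libraries ran from 0.22 to 0.51 (median 0.31). The median over the 8586 genes in the same range of levels was 0.29. Within groups the median SD of a member was 0.31, while the SD of the 8 group means had a median of 0.15. The widest members were Ccne2 (SD 0.51), Mki67 (0.49) and Cdc6 (0.48). The steadiest were the chromosomal passenger kinase Aurkb (0.22), the transcription factor Foxm1 (0.23) and the spindle factor Tpx2 (0.23). The WT anti-CD40 group had the highest mean for 24 of the 41 genes, and the WT anti-PD1 group had the lowest for 15.

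The promoters of the S phase and mitotic genes differed in the motifs they hold. RefSeq promoter windows (GRCm38.p6, 250 bases before to 50 after the start, 300 in all) were held for 32 members, 14 S phase and 18 mitotic, and for 11905 genes of the table. Motifs were searched on both strands by exact letters: the CHR element TTTGAA, the NF-Y box CCAAT, and the E2F site as TTCCCGC or its variants, which are TTCGCGC, the form TTGCCGC and the form TTGGCGC. The CHR element was found in 14 of 18 mitotic windows (77.8%), in 2 of 14 S phase windows (14.3%, Mcm2 and Cdc45) and in 14.7% of all genes. With only the 250 bases before the start counted, the mitotic share was 38.9% (7 of 18) and that of all genes 13.2%. The NF-Y box was in 88.9%, 64.3% and 42.2%. The E2F site was in 16.7% of mitotic and 57.1% of S phase windows and in 17.8% of all genes. Not in the promoter table were Kif20a, Tpx2, Gins2, Aurkb, Ccne2, Foxm1, Cdc25c, Ccna2 and Mcm4. In members, 3 pairs of matches to different motifs shared bases. A match is only a run of letters and does not show that a factor binds there.

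**Figure D1:**
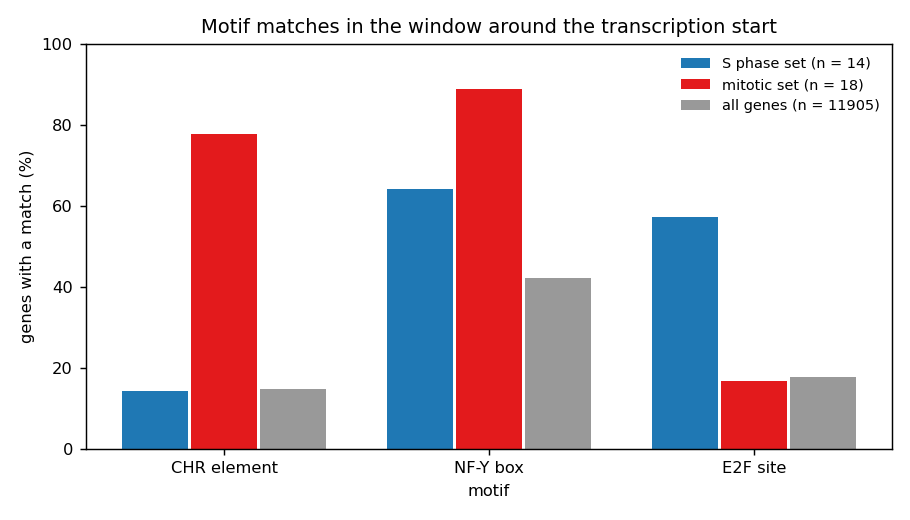
Percent of genes whose 300-base RefSeq promoter window holds the CHR element, the NF-Y box or the E2F site, for 14 S phase genes, 18 mitotic genes and 11905 genes of the table (bars, from 0). The CHR element is in 77.8% of the mitotic windows against 14.3% of the S phase windows, and the E2F site in 57.1% of the S phase windows against 16.7% of the mitotic ones.

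The stretch just before the start is printed for 5 genes named in the results that follow. The letters can so be set beside the blocks of co-variation. Mcm6 is printed as an S phase gene and Mki67 from the block around Cenpe. Cdk1, Cdc20 and Ube2c come from the 6 genes with an unadjusted p under 0.05 under anti-CD40. Each run is the 140 bases before the start, written 5′ to 3′ on the gene's strand, from the RefSeq windows in build GRCm38.p6. For Ube2c only the first 120 of these 140 bases are printed, so its run ends short of the start. Capitals mark motif matches on either strand, so the NF-Y box can appear as ATTGG and the CHR element as TTCAAA. The positions are chr1:128359706-128359845 on the minus strand for Mcm6, chr7:135716380-135716519 on the minus strand for Mki67, chr10:69352913-69353052 on the minus strand for Cdk1, chr4:118437344-118437483 on the minus strand for Cdc20 and chr2:164769789-164769908 on the plus strand for Ube2c.
Mcm6: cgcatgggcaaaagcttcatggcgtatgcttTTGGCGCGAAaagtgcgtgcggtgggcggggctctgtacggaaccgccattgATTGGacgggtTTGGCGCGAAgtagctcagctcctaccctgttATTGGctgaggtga
Mki67: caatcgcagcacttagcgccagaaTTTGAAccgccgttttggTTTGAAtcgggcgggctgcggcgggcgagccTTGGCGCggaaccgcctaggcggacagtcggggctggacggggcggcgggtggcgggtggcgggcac
Cdk1: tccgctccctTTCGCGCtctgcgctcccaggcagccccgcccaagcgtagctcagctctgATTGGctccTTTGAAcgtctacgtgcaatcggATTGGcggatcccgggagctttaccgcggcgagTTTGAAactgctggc
Cdc20: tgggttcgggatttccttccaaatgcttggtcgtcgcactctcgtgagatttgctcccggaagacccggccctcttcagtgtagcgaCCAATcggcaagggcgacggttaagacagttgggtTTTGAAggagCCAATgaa
Ube2c: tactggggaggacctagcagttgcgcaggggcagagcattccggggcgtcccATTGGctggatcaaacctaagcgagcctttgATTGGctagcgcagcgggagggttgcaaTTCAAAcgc

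Mcm6 showed 2 longer capital runs in which E2F matches on both strands overlap, and no CHR element. Cdc20 showed the CHR element 18 bases before the start, between a pair of NF-Y boxes. Cdk1 held CHR elements 71 and 15 bases before the start, each downstream of an NF-Y box, and an E2F match farther out. In Mki67 the CHR elements lay 116 and 98 bases before the start and were followed by an E2F match. Ube2c had its CHR element on the opposite strand, 29 bases before the start.

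**Figure D2:**
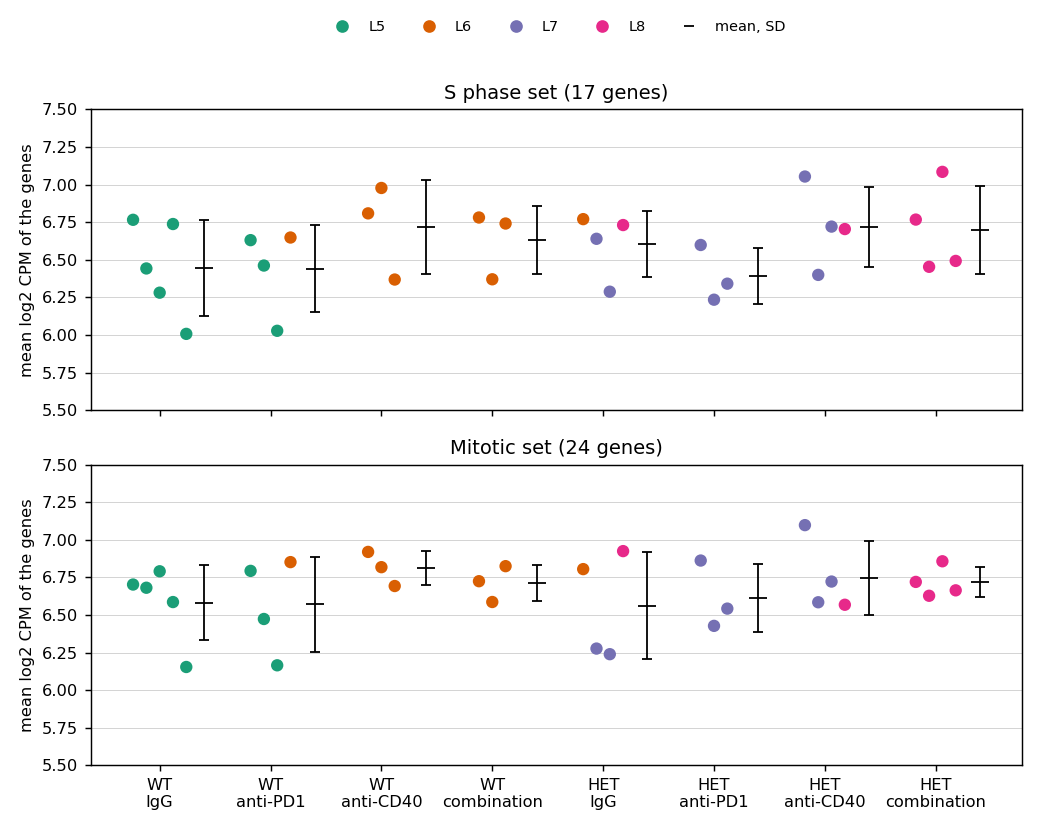
Mean log2 CPM of the 17 S phase genes and of the 24 mitotic genes in each library (points, coloured by L number), with the group mean and SD. Group means of the S phase genes ran from 6.39 (HET anti-PD1) to 6.72 (WT and HET anti-CD40) and of the mitotic genes from 6.56 (HET IgG) to 6.81 (WT anti-CD40), and the points of different groups overlap.

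Per library, the mean of the 17 S phase genes was 6.45 ± 0.32 in WT IgG tumors (SD, n = 5), 6.44 ± 0.29 under anti-PD1 (n = 4), 6.72 ± 0.31 under anti-CD40 (n = 3) and 6.63 ± 0.23 under the combination (n = 3). In HET hosts it was 6.61 ± 0.22 under IgG (n = 4), 6.39 ± 0.19 under anti-PD1 (n = 3), 6.72 ± 0.27 under anti-CD40 (n = 4) and 6.70 ± 0.29 under the combination (n = 4). The mitotic mean in the same order was 6.58 ± 0.25, 6.57 ± 0.32, 6.81 ± 0.11 and 6.71 ± 0.12 in WT hosts and 6.56 ± 0.35, 6.61 ± 0.23, 6.74 ± 0.25 and 6.72 ± 0.10 in HET hosts. The highest group means exceeded the lowest by about the SD of single libraries within a group, which was 0.27 for the S phase mean and 0.24 for the mitotic mean. By L number the S phase mean was 6.42 in L5, 6.68 in L6, 6.53 in L7 and 6.71 in L8, and the mitotic mean was 6.54, 6.78, 6.59 and 6.73.

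E2f1 encodes the activating E2F factor of the G1 to S transition. In WT hosts E2f1 stood at 6.00, 5.47, 5.54, 5.95 and 5.26 under IgG, 5.87, 5.43, 5.78 and 5.71 under anti-PD1, 5.85, 6.37 and 5.45 under anti-CD40, and 5.69, 5.31 and 5.85 under the combination. In HET hosts E2f1 stood at 5.58, 5.87, 5.51 and 5.87 under IgG, 5.65, 5.44 and 5.42 under anti-PD1, 6.11, 5.57, 6.08 and 5.99 under anti-CD40, and 6.12, 5.47, 6.20 and 5.24 under the combination. The highest library was a WT anti-CD40 tumor and the lowest a HET combination tumor, and the groups overlapped in every comparison. Ccne1 encodes cyclin E1, the partner of the kinase that starts S phase. In WT hosts Ccne1 measured 5.67, 5.17, 4.83, 5.53 and 5.17 under IgG, 5.57, 5.17, 4.96 and 5.30 under anti-PD1, 5.53, 5.91 and 4.90 under anti-CD40, and 5.68, 5.42 and 5.40 under the combination. In HET hosts Ccne1 measured 5.61, 5.71, 5.17 and 5.43 under IgG, 5.31, 5.18 and 5.42 under anti-PD1, 5.79, 5.32, 5.81 and 5.73 under anti-CD40, and 5.81, 5.30, 6.00 and 5.32 under the combination. Its highest libraries were HET combination replicate 3 and WT anti-CD40 replicate 2, and here too all groups overlapped.

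Mcm2 is a subunit of the helicase that licenses and unwinds origins. In WT hosts Mcm2 stood at 8.76, 8.69, 8.33, 8.91 and 7.91 under IgG, 8.87, 8.65, 8.07 and 8.79 under anti-PD1, 8.91, 8.83 and 8.52 under anti-CD40, and 8.78, 8.31 and 8.83 under the combination. In HET hosts Mcm2 stood at 8.95, 9.09, 8.31 and 8.75 under IgG, 8.74, 8.48 and 8.24 under anti-PD1, 9.12, 8.37, 8.55 and 8.43 under anti-CD40, and 8.45, 8.37, 8.99 and 8.64 under the combination. The lowest library was WT IgG replicate 5, and the groups overlapped in every comparison. Pcna holds the polymerases on the DNA. In WT hosts Pcna measured 8.42, 7.97, 7.76, 7.95 and 7.54 under IgG, 8.19, 7.84, 7.35 and 8.01 under anti-PD1, 8.20, 8.65 and 8.10 under anti-CD40, and 8.22, 7.82 and 8.16 under the combination. In HET hosts Pcna measured 8.13, 8.40, 7.78 and 8.14 under IgG, 8.09, 8.02 and 7.79 under anti-PD1, 8.35, 7.90, 8.29 and 8.38 under anti-CD40, and 8.38, 8.01, 8.45 and 7.91 under the combination. The 3 WT anti-CD40 libraries stood above 4 of the 5 WT IgG libraries, but WT IgG replicate 1 lay between them. Rrm2 supplies deoxynucleotides. In WT hosts Rrm2 stood at 8.31, 8.02, 8.10, 8.45 and 7.69 under IgG, 8.24, 7.94, 7.41 and 8.23 under anti-PD1, 8.60, 8.90 and 7.93 under anti-CD40, and 8.58, 8.22 and 8.38 under the combination. In HET hosts Rrm2 stood at 8.37, 7.63, 8.20 and 8.46 under IgG, 8.30, 7.92 and 8.20 under anti-PD1, 8.83, 8.23, 8.41 and 8.30 under anti-CD40, and 8.42, 8.33, 8.83 and 8.07 under the combination. HET IgG replicate 2, the library that stood apart, was the lowest of its group for Rrm2, although it was the highest of that group for Mcm2 and Pcna.

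Mki67 encodes Ki-67, the coat protein of mitotic chromosomes that pathologists stain as the marker of cycling cells. In WT hosts Mki67 stood at 8.14, 9.02, 9.02, 8.82 and 8.25 under IgG, 8.73, 8.82, 8.60 and 9.22 under anti-PD1, 9.15, 7.92 and 8.52 under anti-CD40, and 8.95, 8.74 and 9.08 under the combination. In HET hosts Mki67 stood at 9.10, 6.98, 8.65 and 9.19 under IgG, 9.25, 8.56 and 8.91 under anti-PD1, 9.29, 8.83, 8.40 and 7.97 under anti-CD40, and 8.36, 8.59, 8.49 and 8.96 under the combination. Its lowest value, 6.98 in HET IgG replicate 2, lay far below every other library, while replicates 1 and 4 of the same group were among the highest. Top2a, the topoisomerase that untangles sister chromatids, was also read. In WT hosts Top2a measured 8.78, 9.02, 9.05, 8.89 and 8.21 under IgG, 8.80, 8.87, 8.16 and 9.21 under anti-PD1, 9.20, 8.72 and 8.89 under anti-CD40, and 9.08, 8.71 and 9.18 under the combination. In HET hosts Top2a measured 9.21, 8.14, 8.52 and 9.25 under IgG, 9.15, 8.54 and 8.66 under anti-PD1, 9.39, 8.75, 8.80 and 8.46 under anti-CD40, and 8.71, 8.83, 9.15 and 9.16 under the combination. HET IgG replicate 2 was again the lowest library, but only just below WT anti-PD1 replicate 3, and the groups overlapped for both genes.

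Cdk1 is the kinase that drives entry into mitosis, and Ccnb1 and Ccnb2 are its cyclins. In WT hosts Cdk1 stood at 7.66, 6.94, 7.02, 7.00 and 6.77 under IgG, 7.54, 6.74, 6.62 and 7.26 under anti-PD1, 7.43, 8.07 and 7.26 under anti-CD40, and 7.28, 6.96 and 7.35 under the combination. In HET hosts Cdk1 stood at 7.23, 7.36, 6.74 and 7.21 under IgG, 7.24, 7.09 and 7.00 under anti-PD1, 7.53, 7.13, 7.60 and 7.67 under anti-CD40, and 7.57, 7.09, 7.63 and 6.99 under the combination. The WT anti-CD40 libraries all exceeded 4 of the 5 WT IgG libraries, while WT IgG replicate 1 stood second among these 8. In WT hosts Ccnb1 measured 7.28, 7.25, 7.53, 7.01 and 6.71 under IgG, 7.42, 7.02, 6.38 and 7.42 under anti-PD1, 7.59, 7.48 and 7.41 under anti-CD40, and 7.28, 7.21 and 7.24 under the combination. In HET hosts Ccnb1 measured 7.52, 7.20, 6.75 and 7.47 under IgG, 7.35, 7.13 and 7.02 under anti-PD1, 7.62, 7.17, 7.18 and 7.07 under anti-CD40, and 7.14, 7.18, 7.52 and 7.31 under the combination. Ccnb1 was close to the same level in most groups and lowest in WT anti-PD1 replicate 3. Ccnb2 was at 6.77, 6.35, 6.64, 6.23 and 6.12 in WT IgG tumors and at 6.75, 7.16 and 6.68 in WT anti-CD40 tumors, with WT IgG replicate 1 above 2 of the 3 treated libraries.

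Plk1 and Aurkb are the kinases of centrosome maturation and of chromosome attachment. In WT hosts Plk1 stood at 6.64, 6.33, 6.39, 6.36 and 5.88 under IgG, 6.60, 6.27, 5.67 and 6.43 under anti-PD1, 6.77, 6.79 and 6.54 under anti-CD40, and 6.41, 6.35 and 6.44 under the combination. In HET hosts Plk1 stood at 6.47, 6.88, 5.90 and 6.65 under IgG, 6.61, 6.00 and 6.36 under anti-PD1, 6.88, 6.31, 6.67 and 6.52 under anti-CD40, and 6.57, 6.29, 6.64 and 6.29 under the combination. Plk1 was lowest in WT anti-PD1 replicate 3, followed by WT IgG replicate 5 and HET IgG replicate 3. In WT hosts Aurkb measured 6.60, 6.53, 6.57, 6.52 and 6.09 under IgG, 6.82, 6.43, 6.25 and 6.71 under anti-PD1, 6.81, 6.63 and 6.46 under anti-CD40, and 6.62, 6.37 and 6.73 under the combination. In HET hosts Aurkb measured 6.66, 6.38, 6.01 and 6.74 under IgG, 6.71, 6.42 and 6.30 under anti-PD1, 6.99, 6.46, 6.66 and 6.37 under anti-CD40, and 6.54, 6.46, 6.80 and 6.43 under the combination. Aurkb was the steadiest member, and its groups overlapped throughout.

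The inhibitor Cdkn1a, which encodes the p21 brake on cyclin-dependent kinases and is no member of the set, was read beside them. In WT hosts Cdkn1a stood at 6.52, 5.79, 7.84, 6.65 and 7.90 under IgG, 8.11, 6.15, 6.70 and 6.77 under anti-PD1, 7.46, 8.17 and 6.84 under anti-CD40, and 6.47, 7.13 and 7.03 under the combination. In HET hosts Cdkn1a stood at 6.10, 7.53, 6.92 and 6.22 under IgG, 7.02, 7.06 and 6.89 under anti-PD1, 6.54, 7.16, 7.21 and 7.89 under anti-CD40, and 7.56, 6.61, 7.15 and 5.52 under the combination. Its libraries spanned a wider range than those of any of the 11 members printed in full, and anti-CD40 differed from IgG by 0.55 ± 0.48 in WT hosts and by 0.51 ± 0.47 in HET hosts (adjusted p 0.65 and 0.59 with limma and Benjamini-Hochberg adjustment). Without HET IgG replicate 2 the Cdkn1a difference in HET hosts was 0.79.

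None of the 41 genes passed the test in any comparison. With limma on the whole table and Benjamini-Hochberg adjustment, 0 of 41 members and 0 of 15002 genes (0%) had an adjusted p under 0.05 in each of the 10 comparisons between groups and the 3 interactions. A second tool, voom on reads recovered from the deposited values, called 0 genes as well. The smallest adjusted p of a member was 0.29 for anti-CD40 in HET hosts, 0.41 for the combination in HET hosts, 0.62 for anti-CD40 in WT hosts and 0.82 for HET against WT under the combination. Unadjusted, 7 member results passed p under 0.05, out of 41 members in each of the 10 comparisons and 3 interactions. Over all genes the share under that threshold ran from 0.413% (combination, WT hosts) to 14.9% (anti-CD40, HET hosts). All 7 were differences between a treated group and its IgG controls for mitotic genes, and so few are not read as a pattern. Libraries of the 2 groups compared failed to overlap for 1 of 41 members under anti-CD40 in WT hosts and for 1 under the combination between genotypes, and for 0 in the other 8 comparisons. The share of all genes without overlap was 0.573% for anti-PD1, 1.73% for anti-CD40 and 1.46% for the combination in WT hosts, and 1.98%, 5.11% and 5.03% in HET hosts. For HET against WT it was 0.42% under IgG, 5.04% under anti-PD1, 3.9% under anti-CD40 and 12.5% under the combination. The 3 treated groups of a genotype share the same IgG controls, so their differences are not independent of each other.

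Anti-CD40 in WT hosts gave the widest shift of both sets relative to IgG. Of the S phase genes 16 of 17 were higher (median difference 0.29), as were 20 of the 24 mitotic genes (median 0.24). Among all genes 48.5% were higher, with a median difference of -0.01. Unadjusted p fell under 0.05 for 4 of 41 members, all mitotic, while 5.18% of all genes tested did so. With voom the same threshold was met by 4 members and 582 genes.

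The leading genes of that comparison act in mitosis. Ccnb2 was 0.44 ± 0.18 higher and Cenpa, the histone H3 variant that marks centromeres, was 0.44 ± 0.20 higher. Cdk1 was 0.51 ± 0.22 higher. Cdc20, the activator of the anaphase-promoting complex, stood at 6.62, 5.96, 6.33, 6.05 and 5.77 under IgG and at 6.42, 7.07 and 6.61 under anti-CD40. That made Cdc20 0.55 ± 0.24 higher, the largest difference of the set, though the groups overlapped at WT IgG replicate 1. The adjusted p of all 4 was 0.62 (limma, Benjamini-Hochberg). At the other end the kinetochore protein Cenpf differed by -0.18 ± 0.28, and among S phase genes the extremes were the licensing factor Cdt1 at 0.44 ± 0.26 and Ccne2 at -0.12 ± 0.35.

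Only Kif20a, a kinesin of the cytokinetic midzone, had WT anti-CD40 and IgG libraries that did not overlap. It stood at 6.26, 6.20, 6.35, 6.32 and 5.94 under IgG and at 6.59, 6.43 and 6.42 under anti-CD40, a difference of 0.26 ± 0.18. Across all genes 0.693% separated in that direction. These WT shifts cannot be told apart from the L number. Once the L number was added to the model, the S phase median was 0.05 and the mitotic median -0.17, with 8 of 24 mitotic genes higher. Of the groups with L5 libraries, only WT anti-PD1 also held an L6 library, replicate 4. The adjusted medians thus rest on that library and do not settle what the L number contributes. No L number holds both WT IgG and WT anti-CD40 libraries, so no value within one could be had. Leaving out WT anti-CD40 replicate 2 lowered the S phase median to 0.16, and leaving out replicate 3 raised it to 0.49. The mitotic median ran from 0.13, without WT IgG replicate 5, to 0.29.

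In HET hosts most members were also higher under anti-CD40, with smaller medians. The S phase median was 0.11 (14 of 17 higher) and the mitotic median 0.15 (22 of 24 higher), against -0.01 and 49.3% higher over all genes. Unadjusted p fell under 0.05 for 2 of 41 members, below the 14.9% of all genes that did so. Those members were Ndc80, which anchors microtubules at the kinetochore, and Ube2c, the ubiquitin-conjugating enzyme of the anaphase-promoting complex.

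Ndc80 stood at 5.51, 4.42, 5.00 and 5.62 in HET IgG tumors and at 5.96, 5.27, 5.80 and 5.67 under anti-CD40, a difference of 0.54 ± 0.22 (adjusted p = 0.29 with limma and Benjamini-Hochberg). Its HET IgG libraries lay wide apart, with replicate 2 lowest and replicates 1 and 4 inside the range of the treated tumors. Without replicate 2 the Ndc80 difference was 0.30. Ube2c stood at 6.58, 6.34, 5.90 and 6.81 under IgG and at 6.91, 6.55, 6.94 and 7.16 under anti-CD40, a difference of 0.48 ± 0.21 (adjusted p = 0.29 with limma). For Ube2c the same replicates of the IgG group overlapped the treated tumors. The lowest members were Mcm2 at -0.16 ± 0.22 and Cenpf at -0.09 ± 0.27, and the highest S phase gene was Cdt1 at 0.44 ± 0.25. Without HET IgG replicate 2 these were -0.05 for Mcm2, -0.35 for Cenpf and 0.25 for Cdt1. Over the 30 libraries, with HET IgG replicate 2 and its high mitochondrial share left in, Ndc80 correlated at -0.82 with percent mitochondrial reads. For Cdt1 that correlation was -0.69, for Ube2c -0.54, for Cenpf -0.18 and for Mcm2 -0.05. The part of this measure in the differences was not tested.

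Those HET values rest partly on single libraries. Without HET IgG replicate 2 the anti-CD40 medians became 0.20 for the S phase genes and 0.08 for the mitotic genes, and the Mki67 difference went from 0.14 to -0.36. Within the L7 libraries alone, 3 anti-CD40 and 2 IgG with replicate 2 among them, the medians were 0.23 and 0.46. Leave-one-out medians ran from -0.02 (without HET IgG replicate 3) to 0.21 (without HET anti-CD40 replicate 2) for the S phase genes, and from 0.04 (without HET anti-CD40 replicate 1) to 0.26 (without HET IgG replicate 4) for the mitotic genes.

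Markers of other cells and of interferon signalling differed by far more than the members in that comparison. All 19 genes of an interferon-gamma response list were higher under anti-CD40 than under IgG in HET hosts (median 1.57), and their summed level was 1753 to 5262 CPM against 840 to 1629 CPM. All 11 macrophage markers were higher (median 1.66, summed 348 to 986 CPM against 154 to 264 CPM), as were all 15 fibroblast markers (median 1.16, summed 2053 to 2312 CPM against 1163 to 2154 CPM). The 19 skeletal muscle markers that passed the filter were all higher (median 2.72), and the 20 listed summed to 59.3 to 756 CPM against 15.2 to 494 CPM. The 7 adipocyte markers that passed were higher as well (median 1.999), and the 8 listed summed to 78.7 to 203 CPM against 29.998 to 54.8 CPM. Of the 16 melanocyte markers 15 were lower (median -0.43), with summed levels of 27160 to 45173 CPM against 37648 to 77588 CPM. The HET combination showed like values, with medians of 1.56 for the interferon-gamma response, 1.47 for macrophage, 1.40 for fibroblast, 2.40 for muscle, 2.81 for adipocyte and -0.39 for melanocyte markers. No gene of these lists passed the test, and their part in the cell cycle differences was not tested beyond the fit with keratinocyte and muscle scores given with the keratinocyte markers.

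Under the combination most members were higher than under IgG in both genotypes, by small amounts. In WT hosts the S phase median was 0.16 (16 of 17 higher) and the mitotic median 0.11 (23 of 24 higher), with 49.8% of all genes higher. None of the 41 members had an unadjusted p under 0.05, and 0.413% of all genes did. The extremes were Ccne2 at 0.34 ± 0.35 and E2f1 at -0.03 ± 0.22 among S phase genes and Cenpf at 0.31 ± 0.28 and Ube2c at 0.00 among mitotic genes. With a term for the L number the mitotic median turned to -0.23 and 0 of 24 were higher. That term again links L5 to L6 only through WT anti-PD1 replicate 4. Without WT IgG replicate 5 the medians were 0.08 and 0.02, and without WT combination replicate 2 they were 0.28 and 0.20.

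In HET hosts the combination gave an S phase median of 0.08 (14 of 17 higher) and a mitotic median of 0.16 (21 of 24 higher), with 49.6% of all genes higher. All HET combination libraries were L8, and of the HET IgG libraries only replicate 4 was, so this difference can be told apart from the L number only in small part. Over all genes 1472 had an unadjusted p under 0.05 (limma), and 161 did with a term for the L number. For anti-CD40 in HET hosts the same term took that count from 2230 to 2499. With so few shared L numbers the drop may also be lost precision, and its cause was not tested. Ndc80 was the 1 member of 41 with an unadjusted p under 0.05, beside 9.81% of all genes. It stood at 5.95, 5.60, 5.87 and 5.44 under the combination, 0.58 ± 0.22 above IgG (adjusted p = 0.41 with limma and Benjamini-Hochberg), or 0.34 above it without HET IgG replicate 2. Foxm1, the transcription factor of the mitotic program, was lowest at -0.10 ± 0.18, and Mcm2 and Cdt1 marked the ends of the S phase genes at -0.16 ± 0.22 and 0.31 ± 0.25. Without HET IgG replicate 2 Foxm1 was at -0.17, Mcm2 at -0.06 and Cdt1 at 0.11. The S phase and mitotic medians were then 0.11 and 0.07, and the single-library ranges were -0.05 (without HET combination replicate 3) to 0.16 for S phase genes and 0.03 (without HET IgG replicate 3) to 0.26 (without HET IgG replicate 4) for mitotic genes.

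Anti-PD1 alone gave no common shift in WT hosts. The medians were 0.00 for S phase genes (9 of 17 higher) and -0.02 for mitotic genes (10 of 24 higher), with 45.3% of all genes higher. None of the 41 had an unadjusted p under 0.05 (2.75% of all genes). Ccne2 was the lowest at -0.45 ± 0.32, from 4.08, 4.10, 3.80, 3.69 and 3.10 under IgG to 2.50, 3.77, 2.76 and 4.19 under anti-PD1, and the treated libraries fell on both sides of the controls. Cdt1 was highest at 0.22 ± 0.24, and the mitotic extremes were Mki67 at 0.20 ± 0.34 and cyclin A2 (Ccna2) at -0.17 ± 0.20. Both medians took either sign when single libraries were left out, between -0.08 (without WT IgG replicate 5) and 0.13 (without WT anti-PD1 replicate 3) for S phase genes and between -0.13 and 0.13, without the same libraries, for mitotic genes.

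Under anti-PD1 in HET hosts the S phase genes were lower and the mitotic genes were on both sides of 0. All 17 S phase genes were lower than under IgG (median -0.20), while 14 of the 24 mitotic genes were higher (median 0.02) and 52.3% of all genes were higher. No member had an unadjusted p under 0.05 (0.96% of all genes). Cdc6, which loads the helicase at origins, stood at 5.65, 4.62, 4.65 and 5.53 under IgG and at 5.00, 3.87 and 4.81 under anti-PD1. The difference for Cdc6 was -0.55 ± 0.36, and 1 anti-PD1 library lay below all 4 controls while the others fell among them. Mcm7 followed at -0.32 ± 0.23, and Rrm2 was nearest to 0 at -0.03 ± 0.24. Mki67 was highest at 0.42 ± 0.38, but it was -0.08 without HET IgG replicate 2. Without that library Mcm7 was at -0.13 and Rrm2 at -0.21. The S phase median stayed below 0 when any one library was left out (-0.30 to -0.13) and was -0.15 without HET IgG replicate 2, -0.10 within L7 and -0.12 with a term for the L number. The mitotic median took either sign, from -0.10 (without HET IgG replicate 3) to 0.12 (without HET IgG replicate 4), and was -0.04 without HET IgG replicate 2. The difference between the sets was not tested.

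**Figure D3:**
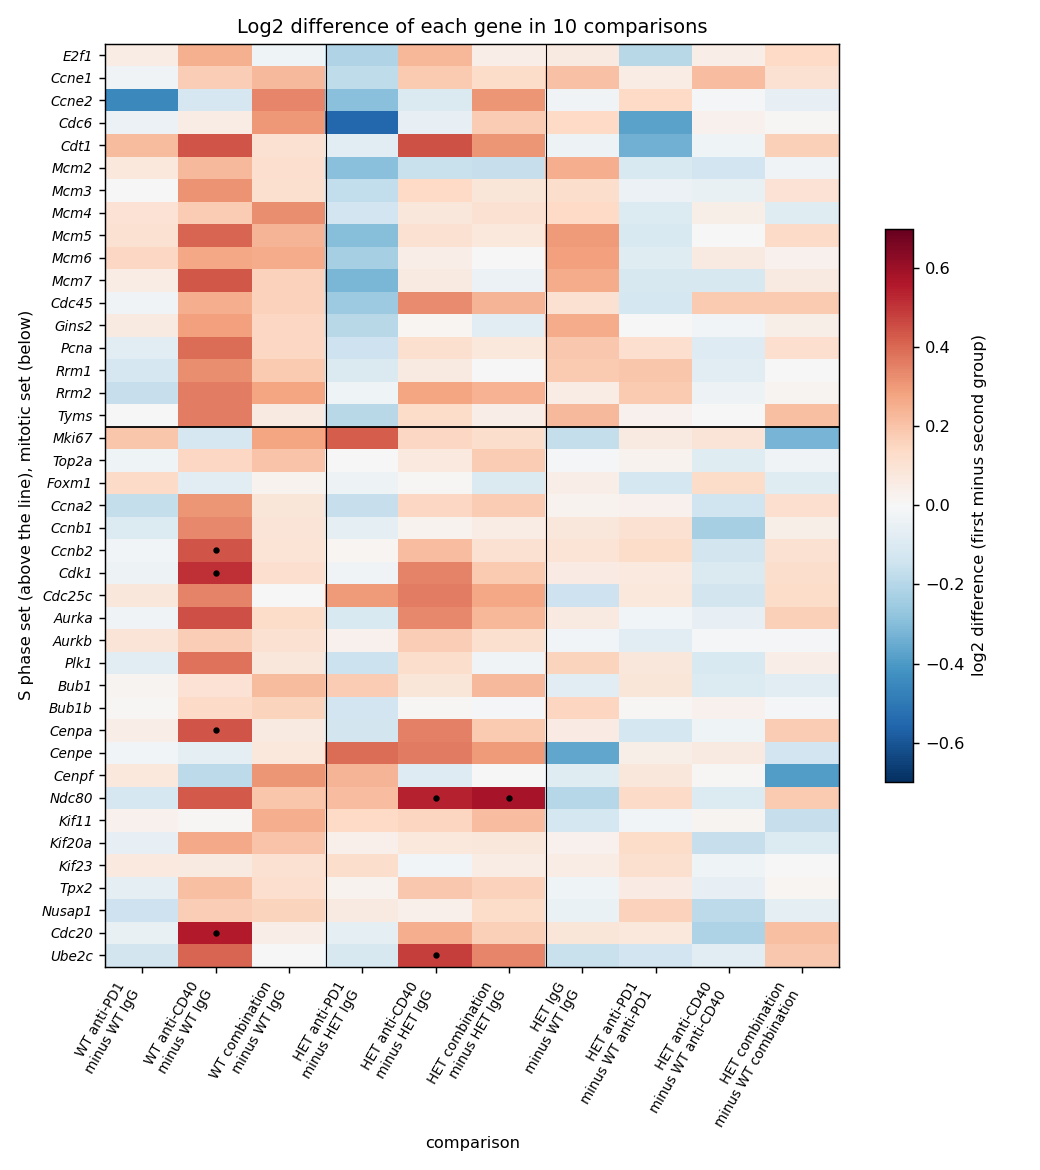
Log2 difference of each of the 41 genes in each of the 10 comparisons between groups (colour; S phase genes first), with dots where the unadjusted p was under 0.05. The 7 dots are mitotic genes under anti-CD40 in WT hosts (4), anti-CD40 in HET hosts (2) and the combination in HET hosts (1); the S phase block under anti-PD1 in HET hosts is below 0 for all 17 genes.

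No member separated HET from WT hosts by the test. Under each treatment the WT and HET libraries had different L numbers, so these differences cannot be told apart from the L number. Under IgG 15 of 17 S phase genes were higher in HET tumors (median 0.18) and 12 of 24 mitotic genes were (median 0.01), with 49.2% of all genes higher. None of 41 had an unadjusted p under 0.05 (2.07% of all genes). Mcm5 was 0.30 ± 0.23 higher, Mcm6 0.29 ± 0.20 and Gins2 0.26 ± 0.17, all parts of the replicative helicase. The motor Cenpe, which carries chromosomes to the spindle equator, was lowest at -0.37 ± 0.30 and stood at 6.39, 4.33, 5.78 and 6.58 in HET IgG tumors, and without replicate 2 the difference was 0.11. Without that library the medians were 0.14 and 0.06, and Mki67 went from -0.17 to 0.33. Mcm5, Mcm6 and Gins2 were then 0.15, 0.16 and 0.14 higher. The S phase median was 0.06 with a term for the L number, which links L5 to L6 only through WT anti-PD1 replicate 4. That median ran from 0.09 (without WT IgG replicate 5) to 0.29 (without HET IgG replicate 3) when single libraries were left out. The mitotic median ran from -0.12 to 0.13.

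Under anti-PD1 the HET minus WT medians were -0.09 for S phase genes (6 of 17 higher) and 0.06 for mitotic genes (18 of 24 higher), with 54.0% of all genes higher and no member under an unadjusted p of 0.05 (2.14% of all genes). Cdc6 at -0.37 ± 0.36 and Rrm1, the large subunit of ribonucleotide reductase, at 0.19 ± 0.19 were the S phase extremes. Ube2c at -0.14 ± 0.22 and the spindle protein Nusap1 at 0.16 ± 0.21 were the mitotic ones. Both medians changed sign when single libraries were left out, from -0.23 (without WT anti-PD1 replicate 3) to 0.01 (without WT anti-PD1 replicate 1) for S phase genes and from -0.10 (without WT anti-PD1 replicate 3) to 0.16 (without WT anti-PD1 replicate 4) for mitotic genes. Under anti-CD40 the medians were -0.01 (6 of 17 higher) and -0.08 (6 of 24 higher), with 44.8% of all genes higher and again no member under 0.05 (3.83% of all genes). Ccnb1 was lowest at -0.23 ± 0.22 and Ccne1 highest at 0.21 ± 0.22. Beside these, Mcm2 differed by -0.13 ± 0.24 and Foxm1 by 0.13 ± 0.19. The S phase median ran from -0.18 (without WT anti-CD40 replicate 3) to 0.13 (without WT anti-CD40 replicate 2), and the mitotic median from -0.18 (without HET anti-CD40 replicate 1) to -0.0049 (without HET anti-CD40 replicate 2).

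Under the combination the HET minus WT medians were 0.06 (14 of 17 higher) and 0.01 (13 of 24 higher), with 49.9% of all genes higher. No member was under an unadjusted p of 0.05 (5.56% of all genes). Cenpf was the 1 member whose groups did not overlap, at 7.10, 7.18 and 7.20 in WT and 6.49, 6.85, 6.65 and 7.10 in HET tumors, though the nearest libraries differed only beyond the second decimal. The difference was -0.39 ± 0.29 (adjusted p = 0.82 with limma and Benjamini-Hochberg), and 5.69% of all genes separated in that direction. Cdc20 at 0.21 ± 0.25 was the highest mitotic gene, and Tyms, which makes thymidylate, at 0.21 ± 0.21 the highest S phase gene, with Mcm4 lowest at -0.08 ± 0.28. With single libraries left out the S phase median ran from -0.06 (without HET combination replicate 3) to 0.17 (without HET combination replicate 2), and the mitotic median from -0.07 (without WT combination replicate 2) to 0.07 (without WT combination replicate 3).

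Whether a treatment acted differently by host genotype was tested as an interaction. The anti-CD40 and combination interactions use WT differences that cannot be told apart from the L number. For anti-PD1 the treated and IgG groups shared L numbers only in part. For anti-PD1 the HET minus WT contrast of the treatment difference had a median of -0.24 over S phase genes (3 of 17 above 0) and 0.03 over mitotic genes (17 of 24 above 0). For anti-CD40 the medians were -0.17 (4 of 17) and -0.08 (9 of 24), and for the combination -0.10 (3 of 17) and 0.00 (13 of 24). Members under an unadjusted p of 0.05 numbered 0 of 41 in each, beside 1.03%, 2.23% and 3.5% of all genes. The extremes were Cdc6 at -0.51 ± 0.47 and Cenpe at 0.41 ± 0.45 for anti-PD1. For anti-CD40 they were Mcm2 at -0.39 ± 0.32 and Cenpe at 0.43 ± 0.45, and for the combination Cenpf at -0.31 ± 0.39 and Ndc80 at 0.39 ± 0.32. Each value was less than 1.5 times its SE. HET IgG replicate 2 weighed on these. Without it Cenpe turned to -0.07 for anti-PD1 and to -0.05 for anti-CD40, while for the combination Ndc80 was 0.15 and Cenpf -0.57.

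The interaction medians also moved with single libraries. Those of the S phase genes stayed below 0 for anti-PD1, between -0.35 (without WT anti-PD1 replicate 3) and -0.13 (without WT IgG replicate 5), and for anti-CD40, between -0.35 (without WT anti-CD40 replicate 3) and -0.06 (without HET anti-CD40 replicate 2). For the combination the S phase median ran from -0.23 (without HET combination replicate 3) to 0.03 (without WT IgG replicate 5). The mitotic median took either sign in each interaction. It ran from -0.10 (without WT anti-PD1 replicate 3) to 0.17 (without WT IgG replicate 5) for anti-PD1 and from -0.17 (without HET anti-CD40 replicate 1) to 0.06 (without WT IgG replicate 5) for anti-CD40. For the combination it ran from -0.10 (without HET IgG replicate 3) to 0.12 (without HET IgG replicate 4).

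Other genes of the cell cycle were read from lists that do not share members with the set. Of 26 further S phase genes, 25 were higher under anti-CD40 in WT hosts (median 0.33), led by the helicase cofactor Gins1 at 0.62 ± 0.28 (adjusted p = 0.62 with limma and Benjamini-Hochberg), and 23 were higher in HET hosts (median 0.19). Under anti-PD1 in HET hosts only 2 of the 26 were higher (median -0.12), with Pold1, the catalytic subunit of DNA polymerase delta, lowest at -0.32 ± 0.23. Of 36 further mitotic genes, 28 were higher under anti-CD40 in WT hosts (median 0.19) and 30 in HET hosts (median 0.14). The passenger protein Birc5 led in WT hosts at 0.62 ± 0.24 and the spindle protein Tacc3 in HET hosts at 0.52 ± 0.21. Of 15 G1 cyclins, kinases and E2F factors, 6 were higher under anti-CD40 in WT hosts (median -0.06), with Ccnd2, cyclin D2, at -0.66 ± 0.31 and Cdk4 at 0.28 ± 0.15, and 7 in HET hosts (median -0.03). Of 22 brakes and checkpoint genes 19 passed the filter, and 9 of these were higher under anti-CD40 in either genotype, with medians of -0.10 and -0.08. The inhibitor genes Cdkn2a, Cdkn2b and Cdkn1c were below the filter. No gene of these 4 lists passed the test in any comparison.

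Among themselves the members varied together from library to library, in blocks. After the group means were taken out, the correlation over the 30 libraries had a median of 0.74 over the 136 pairs of S phase genes, 0.64 over the 276 pairs of mitotic genes and 0.53 over the 408 pairs between the sets. Without HET IgG replicate 2 these were 0.78, 0.73 and 0.59. The libraries share normalization, so the values are descriptions of these 30 libraries. No like median over all genes stands beside them, so they do not show that members are closer than other genes. Cenpe and Mki67 were the closest pair (0.97). Mcm6 followed Mcm3 and Mcm5 (0.96), Top2a followed Bub1, a checkpoint kinase, and Kif11, the motor that separates the spindle poles (0.95), and Pcna followed Cdk1 (0.94). Ube2c followed Cenpa (0.94).

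The mitotic genes did not form one block. Mki67 moved with Cenpe (0.97), Cenpf (0.92), Kif11 (0.90), Bub1 (0.85) and Top2a (0.82), but against Cdc20 (-0.36), Cdk1 (-0.29) and Pcna (-0.28). Leaving out HET IgG replicate 2 left Cenpe at 0.94 and Cenpf at 0.93, and brought Cdc20 to -0.19 and Cdk1 to -0.24. Gene length moved with this division. Exon bases ran from 1531 for Ccnb2 to 15433 for Cenpf (median 4275). Across genes, which are not independent replicates, log2 exon bases correlated at 0.55 with a gene's correlation to Mki67 (40 genes) and at -0.55 with its median correlation to the S phase set (41 genes), and the part of length in the division was not tested. Over all genes, genes among those most like Mki67 were Kif20b (0.97), Cenpe, Mybl1 and Cit (0.96 each for Mybl1 and Cit), and those most like Mcm5 were Prmt5 and Mcm6 (0.96 each), then Mcm3, Pold2 and Lig1 (0.94 each). Both anchors were picked after their values were seen. In correlation to Mki67, Cenpe ranked 2 among all genes, Cenpf 46, Kif11 90, Bub1 420 and Top2a 659. Values such as those of Bub1 and Top2a were thus shared by many genes outside the set.

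**Figure D4:**
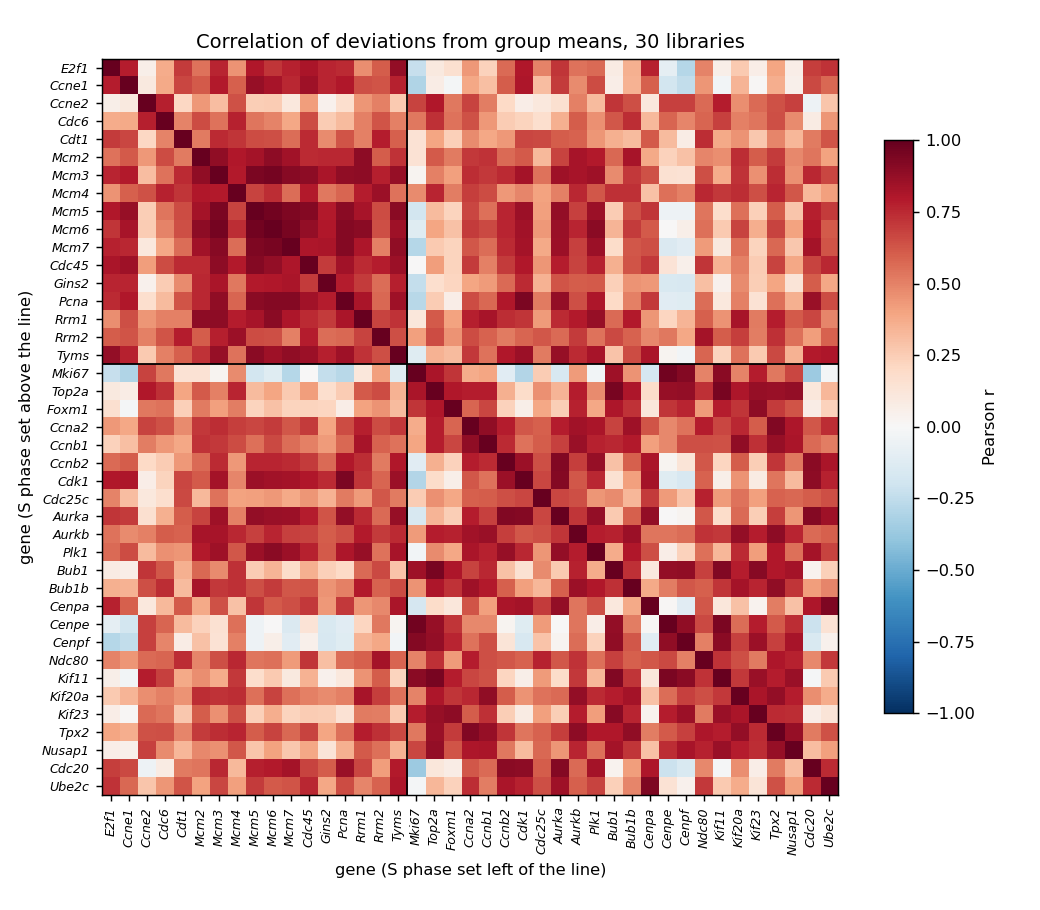
Pearson correlation of the 41 genes over 30 libraries after the group means were taken out (colour from -1 to 1; S phase genes first, then mitotic genes). Pairs of S phase genes have a median of 0.74, with Ccne2 paler than the rest, while Mki67, Cenpe and Cenpf form a dark block with each other and lie near or below 0 with Cdk1 and Cdc20.

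A second measure that moved with this division was keratinocyte message. The 20 keratinocyte markers summed to 10.7 to 3568 CPM over the libraries (median 19.5), and 17 of the 20 had no read in at least 1 library. The summed ranges were 12.4 to 540 CPM in WT IgG, 12.3 to 132 in WT anti-PD1, 15.7 to 3568 in WT anti-CD40 and 11.5 to 16.2 in WT combination tumors. In HET hosts they were 10.7 to 24.2 under IgG, 13.6 to 26.9 under anti-PD1, 11.9 to 1614 under anti-CD40 and 14.0 to 600 under the combination. The epidermal keratin Krt1 had no read in 16 libraries and filaggrin (Flg) had none in 22. The highest summed levels were in anti-CD40 tumors of both genotypes, where mitotic genes were also higher, and the part of these markers in that difference was not tested. In a fit with keratinocyte and muscle scores as covariates the anti-CD40 medians were 0.23 (S phase) and 0.29 (mitotic) in WT hosts and -0.06 and 0.03 in HET hosts, and the combination medians in HET hosts were -0.12 and 0.03.

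Mki67 was lower where the keratinocyte score, the mean log2 CPM of the list, was higher. Over the 30 libraries Pearson's r was -0.59 (permutation p = 0.00097, adjusted over the 6 relations tested 0.0058) and Spearman's rho was -0.63 (permutation p = 0.00028, adjusted 0.0017). The score was also correlated with every other member, without a test, and the adjustment does not cover that wider look. Without the 2 libraries farthest from the median score r was -0.47 (adjusted permutation p = 0.074), so the call rests on those libraries. After group means were taken out r was -0.66. Within L numbers it was -0.74 in L5, -0.94 in L6 and -0.96 in L8 but -0.23 in L7, which holds HET IgG replicate 2. Without that replicate r over 29 libraries was -0.78. In the 21 libraries with a score under 0 r was -0.48 (adjusted permutation p = 0.07), and in the 9 above 0 it was -0.86 (adjusted exact permutation p = 0.0066). Mcm2 showed no such relation (r = 0.01, adjusted permutation p = 0.98).

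Other members differed in sign. As descriptions over the 30 libraries, Cdk1 (0.72), Cdc20 and Cenpa (0.71 each), Ube2c (0.66), the spindle pole kinase Aurka (0.64) and Pcna (0.62) were higher where the keratinocyte score was higher, and Cenpf (-0.62), Foxm1 (-0.51) and the midzone kinesin Kif23 (-0.44) were lower. Both Mki67 and Cdk1 held CHR elements in the promoters printed earlier. Of the S phase genes 15 of 17 had a correlation above 0 (median 0.40), and of the mitotic genes 14 of 24 did (median 0.10). Across genes, log2 exon bases correlated with these values at -0.63 (41 genes). Among the 6 genes with an unadjusted p under 0.05 under anti-CD40 in either genotype were Cdk1, Cdc20, Cenpa and Ube2c, and the others, Ccnb2 and Ndc80, had correlations of 0.60 and 0.47. These genes were picked for being higher under anti-CD40, where the highest scores lay, and group means were left in. Correlations above 0 are thus partly built in by that choice. In WT hosts 1 of 3 anti-CD40 libraries (replicate 2) had the highest keratinocyte score of all, 5.92, together with the highest Cdk1 level (8.07) and the lowest Mki67 level (7.92) of its group. The relation was not particular to keratinocyte markers. For Cdk1, Cdc20, Cenpa, Ube2c, Aurka and Pcna, r was 0.37 to 0.50 with the muscle score and -0.59 to -0.20 with the melanocyte score. With percent mitochondrial reads it was -0.54 to -0.35. For Cenpf, Foxm1 and Kif23 these 3 measures gave -0.18 to 0.16.

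**Figure D5:**
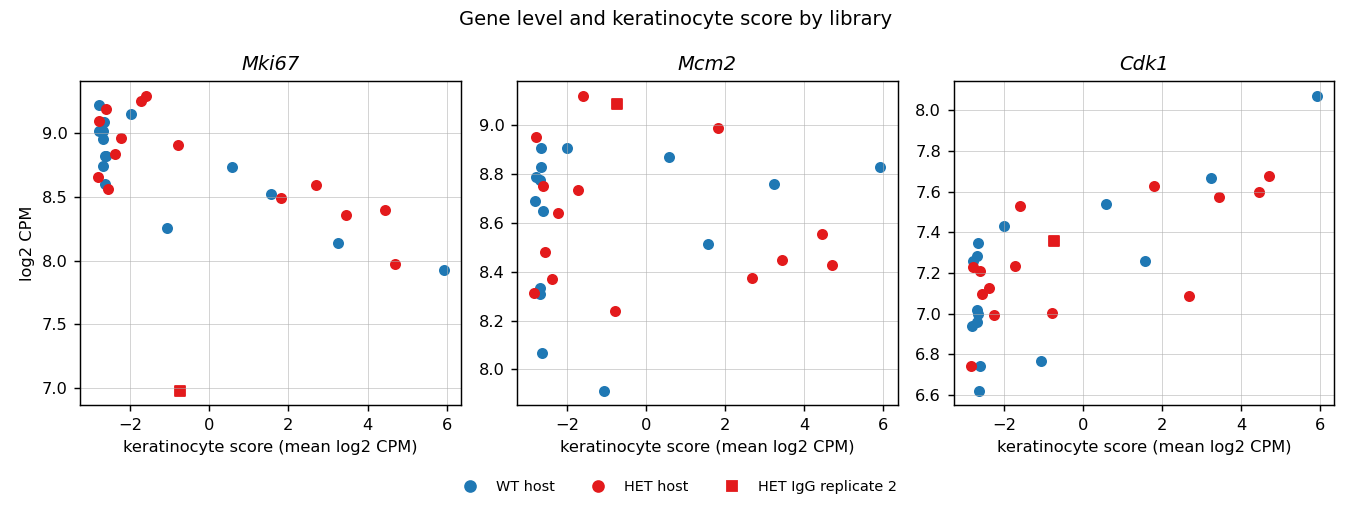
Log2 CPM of Mki67, Mcm2 and Cdk1 against the keratinocyte score (mean log2 CPM of 20 markers) in each of the 30 libraries; WT tumors are blue, HET tumors red, and the square is HET IgG replicate 2. Mki67 declines to the right (r = -0.59), Mcm2 is flat (r = 0.01) and Cdk1 climbs (r = 0.72).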

How the data were processed

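The deposited table holds log2 CPM for 30 libraries, made by the authors with STAR and edgeR on mm10, per the submitters' processing notes; versions, strand handling and the treatment of reads shared between near-identical genes are not given in the sources used here. From the steps between low values, whole reads were recovered for 100% of values (tolerance 0.01, prior count 2). The unit is log2, so limma 3.58.1 with an intensity trend (R 4.3.3) replaced count models: 1 mean per group over all 30 libraries, genes with log2 above 0 in at least 3 libraries, Benjamini-Hochberg adjustment over 15002 genes, called under 0.05. The script was tested on simulated data. Permutation tests used numpy 2.4.6, with ranks from scipy 1.17.1. Gene lengths came from GENCODE on mm10 and promoters from RefSeq. The members and lists were chosen with earlier results of these data known. Printed in every library were 11 members and Cdkn1a; otherwise the highest and lowest gene of each set and the smallest p-values per comparison were named. Alternatives tried were other filters, scales, covariates, a replicate block and leaving out each library. No column of the table was left unused.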

Additional observations from a re-analysis of the deposited data

Results flagged for a closer look

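Of 70 groups of 4 or 5 values tested for a library far from the rest, 3 met Dixon's 95% criterion, and chance gives about 1 in 20. Cdk1 was 7.66 log2 CPM in WT IgG replicate 1, above the other 4 of its group (6.77 to 7.02). Aurkb was 6.09 in WT IgG replicate 5, below the other 4 (6.52 to 6.60). Ccne1 was 5.32 in HET anti-CD40 replicate 2, below the other 3 (5.73 to 5.81).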

How the results depend on the processing

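Across all alternatives run, 0 of the 41 genes was called. Of 3927 recomputed differences of the named genes, 477 changed sign and none passed the test. With a term for the L number the mitotic median turned to -0.17 (anti-CD40, WT hosts) and -0.23 (combination, WT hosts), became 0.20 for HET against WT under anti-CD40, and became 0.28, 0.32 and 0.36 for the anti-PD1, anti-CD40 and combination interactions. That term links L5 to L6 only through WT anti-PD1 replicate 4. With keratinocyte and muscle scores as covariates HET against WT under anti-CD40 became -0.32, and within L7 anti-CD40 in HET hosts became 0.46. Over all genes, leaving out single libraries gave counts of 0 to 1 for anti-PD1 in HET hosts (1 without HET anti-PD1 replicate 2), 0 to 1 for anti-CD40 and 0 to 6 for the combination (1 and 6 without HET IgG replicate 4). The cause of these changes was not tested.

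Same-numbered samples did not pair: in none of the 10 comparisons did every pair correlate above 0.1 (for example -0.75 to 0.19 for anti-CD40 in WT hosts). With a replicate block, S phase and mitotic medians were -0.08 and -0.13 (anti-PD1), 0.19 and 0.15 (anti-CD40) and 0.09 and 0.02 (combination) in WT hosts, 0.09 and -0.12 for HET against WT under IgG, and no gene of the set was called.

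The relation of Mki67 to the keratinocyte score lost its call without the 2 farthest libraries (-0.47), in L5 (-0.74), L6 (-0.94) and L7 (-0.23), and at scores under 0 (-0.48). Relations that were never called also moved. Mki67 with muscle was 0.0065 without the 2 farthest, 0.040 after group means and 0.49 in L7. Mki67 with melanocyte markers was 0.26 without the 2 farthest, 0.68 in L6, 0.84 in L8 and 0.39 without HET IgG replicate 2. Mcm2 with keratinocyte markers was -0.011 without the 2 farthest, -0.028 after group means, -0.016 in L6, -0.49 in L8, -0.033 at scores under 0 and -0.23 above 0. Mcm2 with muscle was -0.84 in L6, and with melanocyte markers -0.082 without the 2 farthest and -0.019 without HET IgG replicate 2.

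Counting only the 250 bases before the start, the CHR element was in 38.9% of mitotic promoters. The planned count tests with edgeR and DESeq2 on the recovered reads were not run; voom was run on those reads in their place. The groups held 3 to 5 libraries of 17.6 to 36.0 M reads each.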
